A study of Caenorhabditis elegans with 32 samples.

Results

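Between day 2 and day 12 of adulthood, worms that lack most of their germline held less mRNA of fat synthesis, sugar metabolism, mitochondrial respiration, muscle filaments, collagens and C-type lectins. They held more mRNA of several antimicrobial peptides, some small heat shock proteins, several insulin-like peptides and nucleolar proteins. The largest difference downward was that of acdh-1, an acyl-CoA dehydrogenase of the propionate shunt, at 2457 FPKM at day 2 and 8.28 at day 12. The largest upward was that of F20E11.17, at 119.1 and 10531 FPKM. FPKM scales the sequenced fragments of a transcript by its length and by the size of the library, so that levels of different transcripts can be set beside each other.

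The data describe the poly-A selected mRNA of whole, untreated Caenorhabditis elegans hermaphrodites of the strain glp-1(e2141), grown in parallel with chromatin samples of the same series. There were 2 libraries at day 2 and 2 at day 12 of adulthood, and the labels tie them to chromatin replicates 3 and 4. All animals came from stocks kept at 16 °C, were raised from hatching at 25 °C on E. coli OP50 with carbenicillin and tetracycline, and those of day 12 were given food again on day 4. The deposited table merges both libraries of an age into 1 FPKM value, so there is no spread between replicates, no test of the age difference was possible, and none is given here. Of 16422 transcripts in the table, 13567 (82.6%), from 12223 genes, had an FPKM of at least 1 at one age, and these are the transcripts described. The other 2855 were below that level at both ages. The labels do not say whether the libraries of one age came from separate cultures, and they do not say whether the counting used strand, so that a gene and one that overlaps it on the other strand cannot be told apart.

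The allele glp-1(e2141) is temperature-sensitive. GLP-1 is the Notch-type receptor that keeps germline stem cells dividing, and animals raised at the restrictive temperature have almost no germ cells and live longer than animals with a germline. Their mRNA therefore comes from somatic tissue, of which intestine, hypodermis, muscle and neurons make up most. In these animals the transcription factor DAF-16, steroid signalling and fat metabolism are known to act in the extended lifespan. Other groups of the same strain were sequenced in the series, and 2 of them are used here as separate experiments. One was glp-1(e2141) labelled L4440, a name used for the empty plasmid in RNA interference by feeding, with 2 libraries per age and a value for each library. The other was glp-1(e2141) serving as control of a met-1(n4337); glp-1(e2141) strain, with 2 libraries per age and 1 value per age for both together.

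A transcript is counted as higher or lower at day 12 where log2((FPKM at day 12 + 1)/(FPKM at day 2 + 1)) reached 1 in size, a 2-fold difference on that scale, which understates the difference of low transcripts. By this rule 1024 transcripts (7.55%) were higher at day 12 and 1764 (13%) were lower, while 10779 (79.5%) stayed within 2-fold. The counts of each gene list below stand beside these shares of 7.55% and 13%. At 4-fold, 269 (1.98%) were higher and 461 (3.4%) lower. The median transcript differed by −0.08, the quartiles lay at −0.55 and 0.34, and the whole range ran from −8.05 to 6.45. In the authors' deposited table, 4940 of the 13567 transcripts (36.4%) had a q-value below 0.05, among them 888 of the 1024 higher and 1511 of the 1764 lower transcripts (6.55% and 11.1% of all). Just inside the limit on the higher side were dao-5, F18A1.7 and R02F11.2, and just outside it R12E2.2, nhr-287 and F42G9.1. Just inside on the lower side were cpna-1, F21C10.10 and par-1, and just outside it cey-1, gpi-1 and Y116F11A.6. For example, dao-5 (NM_001025833) had 11.5 and 24.02 FPKM, R12E2.2 57.8 and 117, cpna-1 (NM_062336) 25.3 and 12.2 and cey-1 307 and 153.

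**Figure D1:**
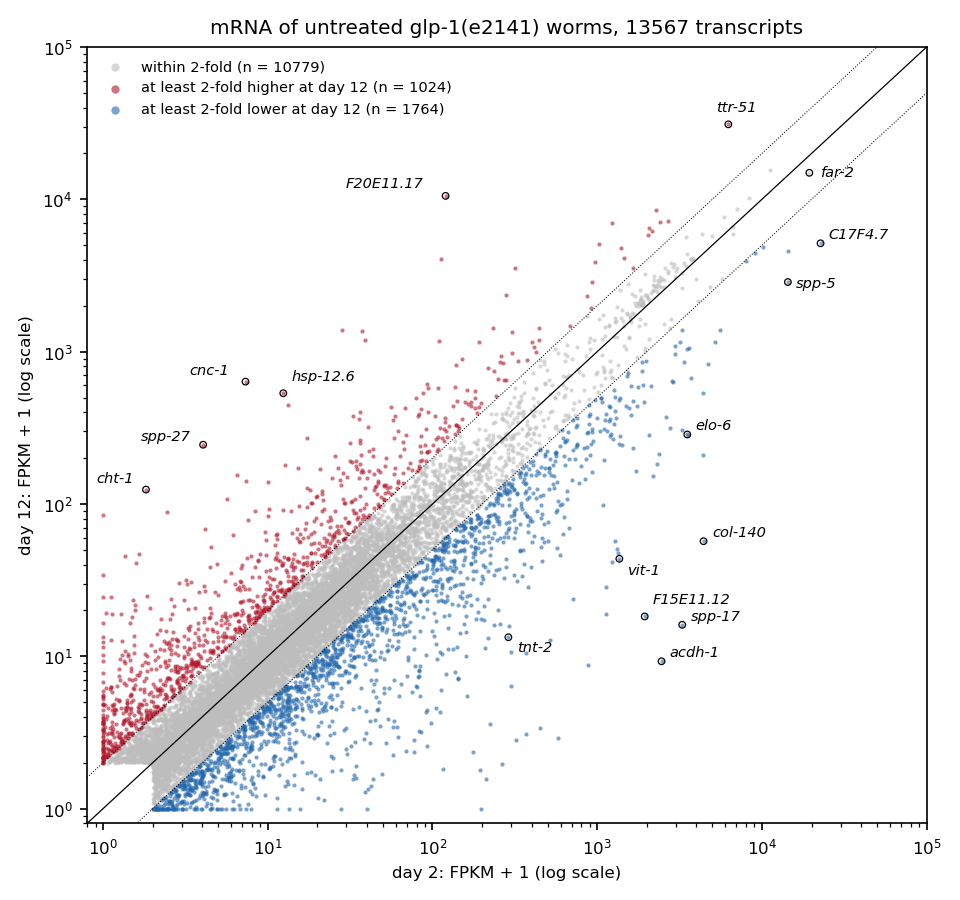
FPKM + 1 at day 2 (x axis, log scale) and day 12 (y axis, log scale) of each of the 13567 transcripts, with the 2-fold limits dotted and equality as a solid line. Grey points are within 2-fold, 1024 red points are higher and 1764 blue points lower at day 12, and the labelled points are transcripts named in the text.

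The share of transcripts past 2-fold depended on the level. Among the 331 transcripts with a mean of 500 FPKM or more, 32.3% were lower and 12.4% higher at day 12, and among the 966 between 100 and 500 FPKM 31.4% were lower and 11.6% higher. Among the 3403 between 20 and 100 FPKM 13.6% were lower and 6.94% higher. Among the 4597 transcripts between 5 and 20 FPKM, 9.88% were lower and 6.05% higher. Below 5 FPKM, where the added 1 FPKM shrinks differences most, 10.2% of 4270 were lower and 8.36% higher. The deposited tables hold no read counts, so the depth behind each value is unknown. Of the described transcripts 59 were listed at 0 at day 2 and 54 at day 12. A listed 0 can be a failed estimate, and no plain ratio of FPKM is given against it. Such transcripts stay in the counts, by their log2 difference with 1 FPKM added.

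The labelled tissue was checked against marker genes. All 11 intestine marker transcripts in the table reached 1 FPKM at one age, and the intestinal GATA factor elt-2 stood at 31.3 and 35.3 FPKM. Of the 19 neuronal marker transcripts in the table, 17 did so, with the synaptic vesicle gene snb-1 at 346 and 509 FPKM. All body wall muscle, coelomocyte and somatic gonad marker transcripts in the table also reached 1 FPKM at one age. Hypodermis markers were low, with 3 of 4 transcripts reaching 1 FPKM and a sum of 5.17 FPKM at day 2 and 4.19 at day 12. Of 4 pharynx marker transcripts 2 reached it, with a sum of 42.5 and 36.5 FPKM. Germline mRNA was low but not at 0. The Vasa helicase gene glh-1 stood at 6.93 and 13.3 FPKM. Of 9 germline and oocyte marker transcripts in the table, 7 reached 1 FPKM at one age. These 7 summed to 51.1 FPKM at day 2 and 69.8 at day 12, of which vbh-1 had 38.1 and 44.6. The 3 sperm marker transcripts summed to 85.2 and 55.7 FPKM, of which ssp-10 had 65.2 and 37.2, while spe-11 had 1.08 and 9.81. Only 2 of the 9 major sperm protein transcripts in the table reached 1 FPKM. The gene that carries the mutation, glp-1, had 0.808 and 0.948 FPKM, and this says nothing about the allele, which does not remove the mRNA.

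The summed level of tissue markers differed between ages in unequal measure. The 11 body wall muscle marker transcripts summed to 1358 FPKM at day 2 and 300.1 at day 12, and the 11 intestine marker transcripts to 7314 and 2505. Over the 8 intestine marker transcripts shared between the experiments, the median difference was −0.62 here, 0.07 in the L4440 libraries and −0.55 in the control worms. For the 8 shared muscle marker transcripts it was −1.31, −0.82 and −1.27. The L4440 and control medians are relative to the median transcript. The 17 neuronal marker transcripts summed to 840 and 925 FPKM, of which snb-1 had 346 and 509. Their median difference was −0.23, with 2 lower (11.8%, beside 13% of all transcripts) and 0 higher. Over the 16 shared neuronal marker transcripts the median was −0.21 here, 0.28 in the L4440 libraries and 0.16 in the control worms. The 3 coelomocyte markers summed to 17.6 and 16.6 FPKM, and the 3 markers of spermatheca and somatic gonad to 56.4 and 43.9. These sums stand beside every gene group below that is mostly expressed in muscle or intestine, and their part in those results was not tested. They are no separate measure of the tissues, since 10 of the 11 muscle markers are also in the muscle filament list below and 4 of the 11 intestine markers in the protease list. In whole animals, fewer cells of a type and less RNA per cell cannot be told apart.

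The leading transcripts on the lower side lost nearly all of their level. The transcript NM_059470 of acdh-1 stood at 2457 FPKM at day 2 and 8.28 at day 12, a difference of −8.05 on the log2 scale, and its second transcript NM_181994 at 195 and 0. The saposin-like gene spp-17, of a family of small membrane-acting antibacterial proteins, stood at 3281 and 15.1 FPKM (−7.67). C32H11.4 had 579 and 1.92 FPKM (−7.63). F15E11.15 and F15E11.12, both on chromosome V, had 210 and 0.566 and 1942 and 17.3 FPKM. The others among the 12 largest were T13F3.6, T05E12.6, the folate transporter gene folt-2, the glucosylceramidase gene gba-4, R07E5.4, the transcript NM_076212, for which no gene name was found, and the cuticle collagen gene col-140 at 4423 and 56.0 FPKM (−6.28). Each of these 12 leading transcripts has a q-value of 1.07e-10 or below in the authors' deposited table.

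The same transcripts can be read in the other experiments, which share no library with this one. In the 4 L4440 libraries, acdh-1 had 2148 and 1748 FPKM at day 2 and 1.46 and 3.46 at day 12, so that both libraries of day 12 were far below both of day 2. In the control worms it had 2424 and 1.77 FPKM. The gene spp-17 had 2803 and 2823 FPKM in the L4440 libraries of day 2 and 6.97 and 8.25 in those of day 12. The collagen col-140 had 6010 and 6762 FPKM at day 2 and 223 and 224 at day 12. For all 11 of the 12 that the other tables hold, the ages of the L4440 libraries did not overlap, in the same direction. Over all transcripts shared between the experiments, both old L4440 libraries were below both young ones in 34%.

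On the higher side, F20E11.17 stood at 119.1 FPKM at day 2 and 10531 at day 12 (6.45), and at day 12 it was among the 6 most abundant transcripts. The caenacin gene cnc-1, which encodes an antimicrobial peptide, had 6.32 and 635 FPKM (6.44). The chitinase gene cht-1 had 0.822 and 123.3 FPKM (6.09), and the saposin-like gene spp-27 had 3.05 and 244 (5.92). The small heat shock protein gene hsp-12.6 had 11.4 and 532 FPKM (5.42), and the invertebrate lysozyme gene ilys-3 had 36.5 and 1367 (5.19). C54F6.15, F40G12.5, T23E7.6, W02D7.11, Y71F9AM.8 and C18D11.6 complete the 12, and Y71F9AM.8, at 0.368 and 44.3 FPKM, is the one with a q-value above 0.05 (0.111) in the authors' deposited table. In the L4440 libraries cht-1 had 1.38 and 2.08 FPKM at day 2 and 608 and 714 at day 12. The gene hsp-12.6 had 8.23 and 75.4 FPKM at day 2 and 135 and 176 at day 12, so that its young libraries there were far apart from each other. Of the 11 on the higher side that the other tables hold, 10 had L4440 ages that did not overlap after centring. The exception was W02D7.11, with 4.46 and 98.2 FPKM at day 2 and 113 and 245 at day 12. Over all transcripts shared between the experiments, both old L4440 libraries were above both young ones in 31.3%.

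**Figure D2:**
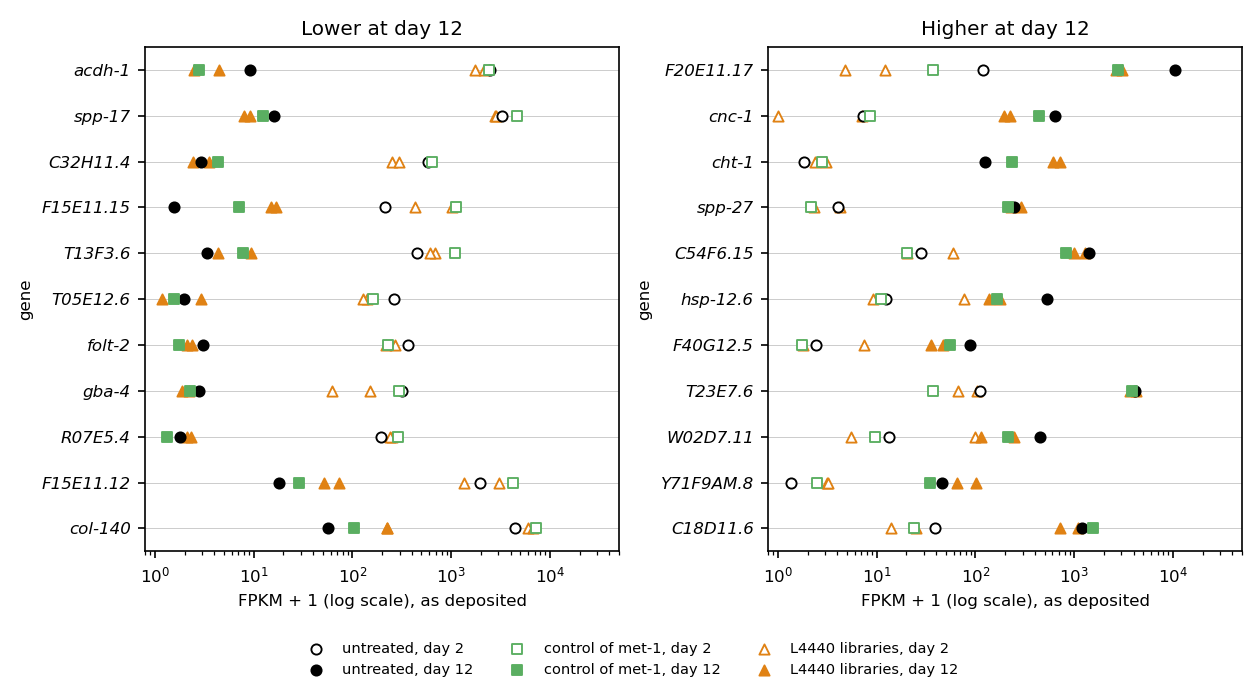
FPKM + 1 (log scale) of the leading transcripts lower (left) and higher (right) at day 12 that the other tables hold with a usable estimate, 1 row per gene. Open symbols are day 2 and filled symbols day 12; circles are the untreated worms and squares the control worms, with 1 value for both libraries, and triangles are single L4440 libraries. Each row shows the day 12 symbols on the same side of the day 2 symbols in all 3 experiments.

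Transcripts listed at 0 at one age extend both sides. At 0 at day 2 and highest at day 12 were F32A7.8 with 83.2 FPKM, the insulin-like gene ins-20 with 33.1, C08E3.15 with 23.4 and F59A7.11 with 15.6. These 4 were also higher in both L4440 libraries of day 12 than in both of day 2, beside 31.3% of all shared transcripts. At 0 at day 12 and highest at day 2 were the second acdh-1 transcript, Y69A2AR.18 with 38.9 FPKM, the hedgehog-related gene grd-10 with 26.7 and C25A8.1 with 14.7. Of these, C25A8.1 was listed at 0 in 3 of the L4440 libraries and at 73.8 FPKM in the other one, a day 12 library, while the control worms had 26.2 FPKM at day 2 and 0 at day 12.

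The most abundant mRNAs differed between ages. At day 2 the first was C17F4.7, with 22697 FPKM, which stood at 5143 at day 12. The fatty acid and retinol binding gene far-2 had 19405 and 14930 FPKM. The amoebapore-like gene spp-5 had 14372 and 2863 FPKM, while the lysozyme gene lys-7 had 11134 and 15655. At day 12 the most abundant was ttr-51, of the transthyretin-like family of secreted proteins, with 31068 FPKM, up from 6250 at day 2. The L4440 libraries held ttr-51 at 7158 and 9925 FPKM at day 2 and 49713 and 50921 at day 12.

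Enzymes that make and lengthen fatty acids were lower almost throughout. Of 12 measured transcripts of desaturases and elongases, with the carboxylase and synthase genes pod-2 and fasn-1 that feed them, 11 were at least 2-fold lower at day 12 and 0 higher, with a median of −1.81, where the median of all transcripts was −0.08. The gene elo-6, which lengthens branched-chain fatty acids, stood at 3522 and 285 FPKM (−3.62). The gene elo-2, which lengthens palmitate, had 411 and 60.4 (−2.74). The remaining transcript, of the palmitoyl-CoA desaturase gene fat-5, had 1016 and 539 FPKM (−0.91). The fatty acid synthase gene fasn-1 had 117 and 54.6 FPKM (−1.08) here, 118.6 and 117.6 in the control worms, and L4440 values of 133 and 67.3 at day 2 and of 136 and 197 at day 12. The L4440 libraries held elo-6 at 3053 and 2952 FPKM at day 2 and 228 and 180.04 at day 12.

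Sugar metabolism was lower too. Of 27 transcripts of glycolysis, gluconeogenesis and the glyoxylate cycle, 19 were at least 2-fold lower and 0 higher, with a median of −1.20. The gene icl-1 encodes the enzyme pair of the glyoxylate cycle, through which worms turn fat into sugar. Its main transcript had 545 and 126 FPKM (−2.10) and its second 152 and 28.7 (−2.37). The second was listed at 0 at both ages in the control worms. In the L4440 libraries the second had 1.18 and 1.30 FPKM at day 2 and 0 and 0 at day 12. The gluconeogenic gene fbp-1 had 389 and 76.4 FPKM (−2.33). At the other end, transcript NM_001026240 of the pyruvate kinase gene pyk-1 had 12.1 and 16.6 FPKM (0.42) while its main transcript NM_060057 had 359 and 144 (−1.31). Transcript NM_001026069 of the aldolase gene aldo-2 had 1463 and 1095 (−0.42). In the control worms icl-1 (NM_070905) had 800 and 599 FPKM, a smaller difference of −0.41, and in the L4440 libraries 1115 and 1197 at day 2 and 390 and 384 at day 12.

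Mitochondrial respiration followed the same direction. Of 66 transcripts of the respiratory complexes and the ATP synthase, 43 were at least 2-fold lower and 2 higher, with a median of −1.19. The complex I gene ndub-3 had 567 and 138 FPKM (−2.03) and the ATP synthase gene asg-2 had 914 and 245 (−1.89). The 2 counted as higher were low transcripts listed at 0 at day 2, namely cyc-2.1 (NM_068228) with 2.57 FPKM and nuo-4 (NM_171185) with 4.92 at day 12. Summed over the list, the level was 22961 FPKM at day 2 and 10696 at day 12. Median differences of the list, over the 61 transcripts that all 3 experiments hold, were −1.21 here, −1.05 in the L4440 libraries and −1.34 in the control worms, the last 2 relative to the median transcript.

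Propionate and one-carbon metabolism held 12 lower and 1 higher of 24 transcripts, with a median of −0.998. The gene acdh-1 leads it, and hphd-1, a dehydrogenase of the same propionate shunt, had 716 and 22.9 FPKM (−4.91). The gene sams-1, which makes the methyl donor S-adenosylmethionine, had 101 and 18.3 FPKM (−2.39), while its paralogue sams-3 had 2.56 and 10.4 (1.68). Of 70 transcripts of fatty acid oxidation and lipases, 23 were lower (32.9%) and 6 higher (8.57%, beside 7.55% of all transcripts), with a median of −0.55. On the higher side were 2 carnitine palmitoyltransferase genes, cpt-4 with 4.62 and 106 FPKM (4.26) and cpt-3 with 10.3 and 61.5 (2.47). Of the yolk protein genes, only vit-1 is in the table, with 1362 FPKM at day 2 and 42.7 at day 12.

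Muscle filament genes were lower as a group. Of 53 transcripts of body wall muscle and sarcomere, 28 were at least 2-fold lower and 1 higher, with a median of −1.02. The troponin T gene tnt-2 had 288 and 12.3 FPKM (−4.44), and the paramyosin gene unc-15 had 279 and 37.5 (−2.86). The light chain gene mlc-7 had 52.04 and 126 FPKM (1.26), and mlc-4, whose light chain works in non-muscle cells, had 279 and 387 (0.47). Over the 44 transcripts in all 3 experiments the median was −0.94 here, −0.80 in the control worms and −0.35 in the L4440 libraries. Transcripts of synapses and neurotransmitters held 3 lower (6.67%, beside 13% of all transcripts) and 0 higher of 45, with a median of −0.31. The glutamate decarboxylase gene unc-25, which makes GABA, had 16.6 and 6.78 FPKM (−1.18) for NM_067288 and 4.26 and 1.44 (−1.11) for NM_001027661. In the L4440 libraries NM_067288 had 5.47 and 2.79 FPKM at day 2 and 6.09 and 6.55 at day 12. There NM_001027661 had 10.7 and 12.8, and 7.02 and 7.34 FPKM. The control worms had 27.8 and 18.3 FPKM of NM_067288 and 0.504 and 1.03 of NM_001027661. Over the 39 synaptic transcripts in all 3 experiments the median was −0.31 here, −0.01 in the L4440 libraries and −0.03 in the control worms.

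Of the cuticle collagens, 40 of 83 transcripts in the table reached 1 FPKM, and 22 of these were at least 2-fold lower and 0 higher, with a median of −1.09. Their summed level was 10887 FPKM at day 2 and 389 at day 12, of which col-140, col-119 and col-181 made up most at day 2. In the other direction col-84 had 0.337 and 1.16 FPKM (0.69) and col-114 had 0.479 and 1.37 (0.68). Collagen genes are near-identical in parts, and no source used here gives how shared reads were divided among them.

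Defence genes differed both ways. C-type lectins, secreted sugar-binding proteins of which many respond to bacteria, held 46 lower and 8 higher of 91 transcripts, with a median of −1.01. The gene clec-67 had 116 and 0.822 FPKM and clec-53 had 32.6 and 0.652 (−4.35), while clec-60 had 5.91 and 29.6 (2.15). Lysozymes, saposin-like proteins and antimicrobial peptides held 17 lower and 17 higher of 63. The lower ones were led by abundant mRNAs, spp-17, spp-23 with 300 and 9.67 FPKM, lys-2 with 3579 and 284, and lys-8 with 3251 and 304. The higher ones included cnc-1, spp-27, ilys-3 and spp-21, the last with 0.653 and 45.9 FPKM. The epidermal antimicrobial peptide genes nlp-29, nlp-28 and nlp-31 had 242 and 513, 303 and 983, and 107 and 575 FPKM. In the L4440 libraries nlp-29 had 925 and 1459.7 FPKM at day 2 and 1289 and 1679.6 at day 12, where the ages overlapped. Transthyretin-like genes held 10 higher and 6 lower of 32, and their summed level was 20113 FPKM at day 2 and 50063 at day 12, where ttr-51 made up most of it.

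**Figure D3:**
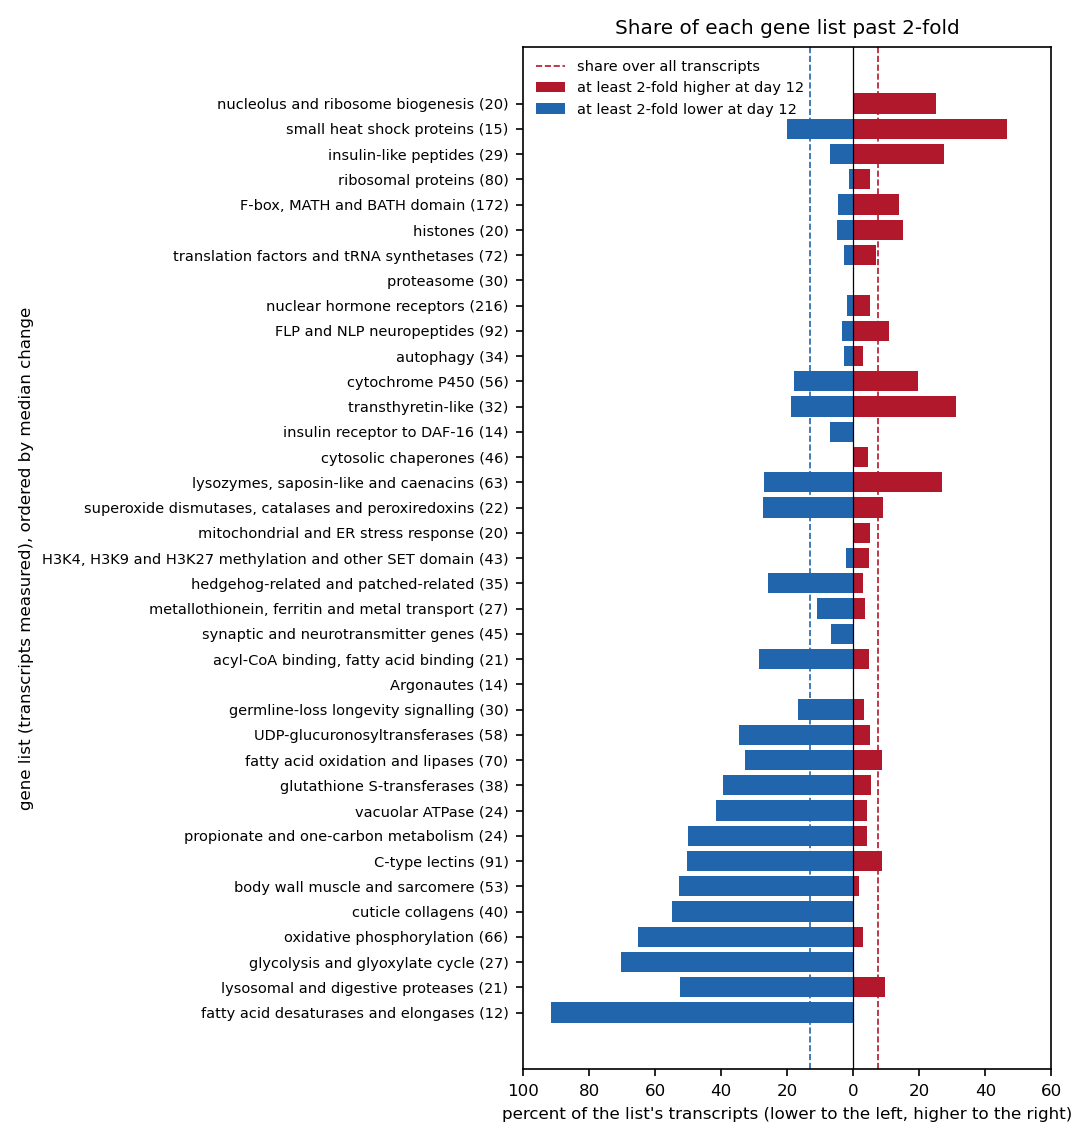
Percent of the transcripts of each gene list that were at least 2-fold lower (blue, to the left) or higher (red, to the right) at day 12, with the number measured in brackets and the lists ordered by median. Dashed lines mark the share over all transcripts, 13% lower and 7.55% higher; fatty acid desaturases and elongases stand at the bottom with 91.7% lower, and small heat shock proteins have 46.7% higher.

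Small heat shock proteins, chaperones that hold unfolded proteins, held 7 higher and 3 lower of 15 transcripts, with a median of 0.38. Over the 14 transcripts in all 3 experiments the median was 0.03 here, −0.15 in the L4440 libraries and 0.62 in the control worms. The remaining one, sip-1, had 0.411 and 1.92 FPKM here and was below 1 FPKM in the L4440 libraries. After hsp-12.6, the leading ones were hsp-16.21 with 0.596 and 39.8 FPKM (4.68) and hsp-16.20 with 0.529 and 22.5 (3.94). The heat-inducible genes hsp-16.2 and hsp-16.41 had 39.5 and 317, and 33.1 and 192 FPKM. The gene hsp-12.1 was lower, with 26.2 and 7.45 FPKM (−1.69) for its main transcript. The difference of hsp-16.21 was smaller elsewhere. The L4440 values of hsp-16.21 were 1.12 and 3.15 FPKM at day 2 and 7.90 and 4.87 at day 12, and those of the control worms 0.546 and 2.82. Members of the hsp-16 family share sequence, and reads that fit several of them are uncertain.

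Other chaperones were mostly within 2-fold. Of 46 transcripts of cytosolic chaperones 2 were higher (4.35%) and 0 lower, namely hsp-70 with 7.40 and 88.7 FPKM (3.42) and the chaperonin gene cct-4 with 61.1 and 299 (2.27). Of 20 transcripts of mitochondrial and ER stress response, 1 was counted as higher, a transcript of pdi-2 listed at 0 at day 2, and the next, pdi-3, had 449 and 874 FPKM (0.96).

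Detoxification genes were more often lower than higher, except the cytochromes. Glutathione S-transferases held 15 lower and 2 higher of 38, with a median of −0.92. The gene gst-4, a common reporter of oxidative stress, had 502 and 55.7 FPKM (−3.15), and gst-28 had 43.7 and 2.80 (−3.56). On the other side gst-3 had 8.70 and 26.8 FPKM (1.52). UDP-glucuronosyltransferases held 20 lower and 3 higher of 58, with a median of −0.42, from ugt-53 with 83.8 and 2.19 FPKM (−4.74) to ugt-1 with 9.08 and 82.2 (3.04). Cytochrome P450 genes held 11 higher (19.6%, beside 7.55% of all transcripts) and 10 lower (17.9%, beside 13%) of 56. Their median was 0.00, and they ran from cyp-35A3 with 68.2 and 1.37 FPKM (−4.87) to cyp-35B1 with 34.5 and 358 (3.34).

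Antioxidant genes held 6 lower (27.3%, beside 13% of all transcripts) and 2 higher (9.09%, beside 7.55%) of 22 transcripts, with a median of −0.04. Over the 18 transcripts in all 3 experiments the median was −0.04 here, −0.55 in the L4440 libraries and −0.51 in the control worms. The glutathione peroxidase gene gpx-7 had 61.6 and 4.49 FPKM (−3.51), and prdx-3, a mitochondrial peroxiredoxin, had 289 and 68.9 (−2.05). The gene sod-5, a cytosolic superoxide dismutase, had 0.121 and 11.9 FPKM (3.52). The L4440 libraries held sod-5 at 0.201 and 1.24 FPKM at day 2 and 0.712 and 0.703 at day 12, where the ages overlapped, and in the control worms 0.0983 and 1.30. The gene cdr-3, of a family named for its response to cadmium, had 0.465 and 15.5 FPKM here (3.50), while its L4440 values were 0.318 and 1.63 at day 2 and 0.374 and 0.370 at day 12. The high day 12 level of sod-5 and cdr-3 was therefore not met in the other experiments. These differences between experiments were not tested.

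Insulin-like peptides, of which worms have a large family acting on one receptor, held 8 higher and 2 lower of 29 transcripts, with a median of 0.37. Besides ins-20, ins-11 had 3.53 and 51.3 FPKM (3.53), and its L4440 values were 1.70 and 6.09 at day 2 and 50.99 and 47.4 at day 12. On the lower side ins-33 had 5.91 and 0.374 FPKM (−2.33) and ins-13 had 10.4 and 0. Downstream, from the receptor to DAF-16, 1 of 14 transcripts was past 2-fold, that of the kinase gene pdk-1 with 12.5 and 3.95 FPKM (−1.44). Neuropeptides of the FLP and NLP families held 10 higher (10.9%, beside 7.55% of all transcripts) and 3 lower (3.26%, beside 13%) of 92. Their median was 0.06, and they ran from nlp-24 with 63.1 and 5.59 FPKM (−3.28) to nlp-25 with 11.3 and 90.2 (2.89). Over the 89 neuropeptide transcripts in all 3 experiments the median was 0.06 here, 0.85 in the L4440 libraries and 0.38 in the control worms.

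Genes tied to longevity without a germline were mostly within 2-fold, with 5 lower and 1 higher of 30 transcripts and a median of −0.37. The shares were 16.7% lower and 3.33% higher, beside 13% and 7.55% of all transcripts. The genes dod-24 and dod-17, which respond to DAF-16, had 369 and 9.58 FPKM (−5.13) and 42.6 and 0.560 (−4.81). The gene daf-36, whose enzyme acts early in making the steroid hormone dafachronic acid, had 69.7 and 8.91 FPKM (−2.84). The transcriptional elongation factor gene tcer-1, needed for this longevity, had 13.9 and 13.05 FPKM for its main transcript, and the gene kri-1 had 7.62 and 7.79. In the other direction dod-6 had 930 and 2854 FPKM (1.62). Transcripts of nuclear hormone receptors held 11 higher (5.09%) and 4 lower (1.85%) of 216, both below the shares of all transcripts. Their median was 0.09, and they ran from nhr-235 with 12.1 and 0.511 FPKM (−3.12) to nhr-61 with 7.92 and 45.9 (2.40).

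Genes of the nucleolus stood on the higher side, while ribosomal proteins and translation factors passed 2-fold about as often as all transcripts or less. Of 20 transcripts of nucleolus and ribosome biogenesis, 5 were higher and 0 lower, with a median of 0.71. The nucleostemin gene nst-1 had 35.8 and 208 FPKM (2.51) and nol-53 had 16.0 and 73.6 (2.13), and the list medians in the L4440 libraries and the control worms were 0.71 and 0.76. Ribosomal proteins had 4 higher (5.0%, beside 7.55% of all transcripts) and 1 lower of 80, a median of 0.25 and a summed level of 141146 FPKM at day 2 and 167530 at day 12. Over the 72 in all 3 experiments their median was 0.25 here, 0.88 in the L4440 libraries and 0.01 in the control worms. Translation factors and tRNA synthetases held 5 higher (6.94%) and 2 lower of 72, led by the leucyl-tRNA synthetase gene lars-1 with 66.6 and 229.7 FPKM (1.77).

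The 30 proteasome transcripts were all within 2-fold, from rpn-13 (−0.51) to pas-3 (0.71), with a median of 0.10. Autophagy genes held 1 higher and 1 lower of 34, 2.94% each beside 7.55% and 13% of all transcripts. These were atg-16.2 at 31.3 and 103 FPKM (1.69) and epg-3 at 38.7 and 17.3 (−1.12). Lysosomal and digestive proteases held 11 lower and 2 higher of 21, with a median of −1.24, and the aspartyl protease gene asp-13 had 1088 and 97.5 FPKM (−3.47). The vacuolar ATPase, the pump that acidifies lysosomes, held 10 lower and 1 higher of 24, with a median of −0.92. Its gene vha-12 had 364 and 117 FPKM (−1.63), while vha-18 had 0.685 and 5.06 (1.85). In the L4440 libraries the median of 18 protease transcripts was −0.04, beside −0.54 over the same 18 here.

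F-box, MATH and BATH domain genes, whose proteins choose targets for ubiquitin ligases, held 24 higher and 8 lower of 172, with a median of 0.25. The gene fbxa-143 had 2.42 and 29.9 FPKM (3.18) and fbxa-24 had 35.5 and 260 (2.84), while fbxa-88 had 13.03 and 1.42 (−2.53). The share lower, 4.65%, was below the 13% of all transcripts, and the share higher, 14%, above their 7.55%. Many of these genes lie in tandem copies, and reads they share are uncertain.

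In the untreated worms, genes of the H3K36 methylation that the series studies were at close to one level at both ages. Of 9 measured transcripts, 0 were past 2-fold, with a median of −0.05. The methyltransferase gene met-1, whose enzyme marks H3 in transcribed genes, had 4.66 and 4.68 FPKM for NM_058939. The germline methyltransferase gene mes-4 was below 1 FPKM at both ages here, with 0.388 and 0.461, and in the control worms, with 0.464 and 0.702. In the L4440 libraries mes-4 had 0.619 and 0.524 FPKM at day 2 and 29.7 and 11.4 at day 12. This difference between experiments was not tested. The demethylase gene jmjd-2 had 4.90 and 3.02 FPKM (−0.55), with a q-value of 0.0071 in the authors' deposited table, and the chromodomain gene mrg-1 had 7.78 and 7.23 for its main transcript. The highest of the list, rbr-2, a demethylase better known for H3K4, had 9.04 and 12.3 FPKM (0.41). In the control worms met-1 (NM_058939) had 4.63 and 2.87 FPKM, and in the L4440 libraries 1.98 and 2.90 at day 2 and 0.00976 and 5.71 at day 12, where the ages overlapped.

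Other histone methyltransferases and SET domain genes held 2 higher (4.65%) and 1 lower (2.33%) of 43, beside 7.55% and 13% of all transcripts. Their median was −0.06. The gene set-27 had 11.9 and 4.63 FPKM (−1.20), and set-12 had 1.23 and 5.21 (1.48). Histones held 3 higher (15.0%) and 1 lower (5.0%) of 20 among polyadenylated transcripts. Over the 16 histone transcripts in all 3 experiments the median was 0.24 here, −0.13 in the L4440 libraries and −0.19 in the control worms. The linker histone genes hil-3 and his-24 had 5.76 and 26.2, and 11.2 and 25.6 FPKM. The gene his-38 had 82.7 and 22.1 FPKM (−1.86). The 14 Argonaute transcripts were all within 2-fold, with a median of −0.32 and ergo-1 lowest at 7.22 and 3.58 FPKM (−0.84).

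The table separates the transcripts of a gene, so the split between them can be followed. Of the genes described, 1102 had more than 1 transcript at 1 FPKM or above, and 332 of them had one past 2-fold. In 87 genes every such transcript was lower and in 19 every one was higher. In 218 genes one was past 2-fold and another within it. In 8 genes one transcript was 2-fold higher and another 2-fold lower, namely ttr-59, nuo-4, efa-6, pde-4, clp-1, pst-1, kdin-1 and dur-1. In all of them but dur-1 the higher transcript was below 6 FPKM at day 12, and in 4 it was listed at 0 at day 2. Only kdin-1 and dur-1 had a q-value below 0.05 both ways in the authors' deposited table. For dur-1, isoform d had 10.3 and 23.4 FPKM (1.11) and isoform b 7.46 and 3.02 (−1.07), so that isoform d made up 54.1% of the gene at day 2 and 87.2% at day 12. In the L4440 libraries isoform d of dur-1 was 22.4% and 22.6% at day 2 and 47.9% and 65.2% at day 12, and in the control worms 23.6% and 81.8%.

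Within 2-fold, the split of daf-16, the FOXO factor itself, stood out and was chosen after its values were seen. Isoform b of daf-16 had 61.4 and 34.9 FPKM (−0.80), with a q-value of 0.0161 in the authors' deposited table, and isoform f had 25.8 and 50.7 (0.95), with a q-value of 0.00812 there. Isoform f was thus 27.9% of the gene at day 2 and 53.7% at day 12. In the control worms it was 9.55% and 21.8%, and in the L4440 libraries 11.7% and 16.8% at day 2 and 26.1% and 36.9% at day 12, so that both old libraries were above both young ones. Isoform b of daf-16 had 97.3 and 64.8 FPKM in the L4440 libraries of day 2 and 94.0 and 98.4 in those of day 12, where the ages overlapped. In the control worms isoform b had 89.2 and 57.8 FPKM. The tropomyosin gene lev-11, chosen the same way, had 595 and 97.5 FPKM for isoform a (−2.60) and 76.7 and 106 for isoform c (0.47). Isoform c of lev-11 was 10.5% of the gene at day 2 and 46.1% at day 12. Its share in the L4440 libraries was 9.65% and 15.7% at day 2 and 32.5% and 24.03% at day 12. Shares of unc-64 and icl-1, chosen the same way, differed more between experiments. Isoform b of unc-64 was 70.8% and 82.8% here and 69.4% and 79.9% in the control worms. In the L4440 libraries it was 30.3% and 25.3% at day 2 and 31.1% and 0.107% at day 12. Isoform b of icl-1 was 21.9% and 18.5% here and 0% at both ages in the control worms. In the L4440 libraries it was 0.106% and 0.108% at day 2 and 0% at day 12. The FPKM of transcripts that share exons come from a division of shared reads, and the error of that division is not in the deposited table.

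**Figure D4:**
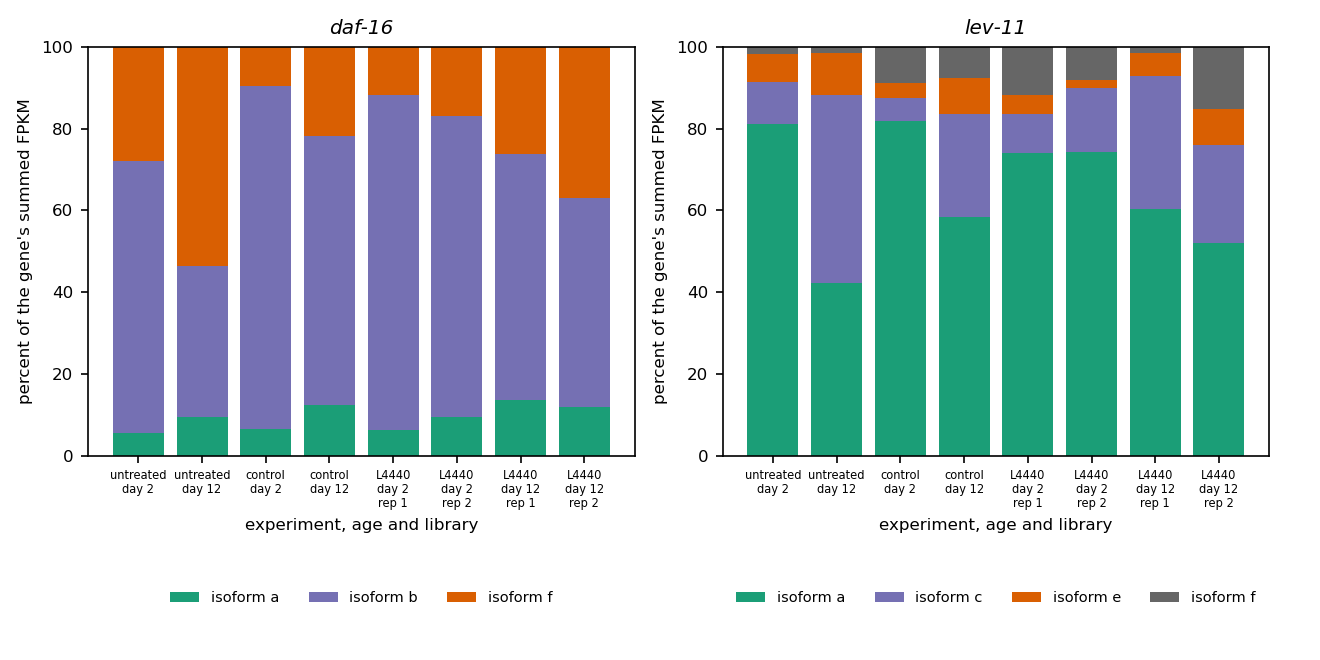
Share of each annotated isoform in the summed FPKM of daf-16 (left) and lev-11 (right), in percent on the y axis, for each experiment, age and, in L4440, library on the x axis. The share of daf-16 isoform f is larger at day 12 in every pair of bars, from 27.9% to 53.7% in the untreated worms, and lev-11 isoform c is larger at day 12 throughout, from 10.5% to 46.1%.

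Along the genome, the X chromosome had the largest share of lower transcripts, 17.4%, with 6.05% higher and a median of −0.23. Chromosome III had 9.18% lower and 6.57% higher, and chromosome I 9.79% lower and 6.08% higher. Chromosome V had the largest share higher, 11.4%, with 15.3% lower. For 898 transcripts no chromosome was found. Among 10942 genes in genome order, each represented by its transcript with the largest difference, 15 runs of at least 4 neighbours were 2-fold lower together and 5 were 2-fold higher, with a longest run of 5. At 4-fold, there were 6 runs of at least 3 lower neighbours and 1 of higher ones.

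The 4-fold runs were made of related genes in part. On chromosome IV, F55G11.8, F55G11.2, dod-17 and K10D11.2 stood at 76.2, 38.1, 42.6 and 12.2 FPKM at day 2 and at 1.805, 0.289, 0.560 and 0.449 at day 12. On chromosome X, nspc-16, nspc-17, nspc-18 and nspc-19, of a family of nematode-specific small peptides, stood at 44.3, 56.9, 76.1 and 60.98 FPKM at day 2 and 4.38, 1.25, 1.35 and 1.94 at day 12. The glutathione S-transferase genes gst-26, gst-27 and gst-28 on chromosome II formed another, as did K08D8.3, K08D8.4 and K08D8.5 on chromosome IV, where K08D8.5 had 297 and 5.42 FPKM. The run of higher neighbours was C08E3.15, C08E3.13 and C08E3.1 on chromosome II, with 0, 20.3 and 0.216 FPKM at day 2 and 23.4, 115 and 5.40 at day 12. All of these runs, except that of pdhb-1, grd-13 and grd-10, whose estimates in the other tables were not usable, lay on the same side in the control worms and in the L4440 libraries.

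The untreated worms were then set beside the other 2 experiments over 11242 transcripts. These are the ones that all 3 tables hold with a usable estimate, 12202 in number, less 960 that were below 1 FPKM in another experiment. Differences of L4440 and control are given relative to their median transcript, since the median of L4440 as deposited was 0.47 and that of the control −0.0025. Of the 857 shared transcripts at least 2-fold higher here, 94.2% were higher in L4440, and in 84.7% both old libraries were above both young ones, beside 31.3% of all shared transcripts. In the control worms 97.2% of them were higher, beside 50% of all. Of the 1472 at least 2-fold lower here, 92.9% were lower in L4440, in 84.6% both old libraries were below both young ones, beside 34% of all, and 96.4% were lower in the control worms. Of the higher ones 66.9% were also at least 2-fold higher in L4440 and 73.0% in the control, beside 10.6% and 10% of all shared transcripts. Of the lower ones 68.8% and 74.7% were at least 2-fold lower there, beside 14.4% and 13.1% of all. The medians of the higher transcripts were 1.51 here, 1.34 in L4440 and 1.55 in the control, and those of the lower −1.50, −1.41 and −1.48. Across the 11242 transcripts, which share a scale and an annotation, the differences had a Pearson correlation of 0.76 with L4440 and 0.85 with the control, given as a description.

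**Figure D5:**
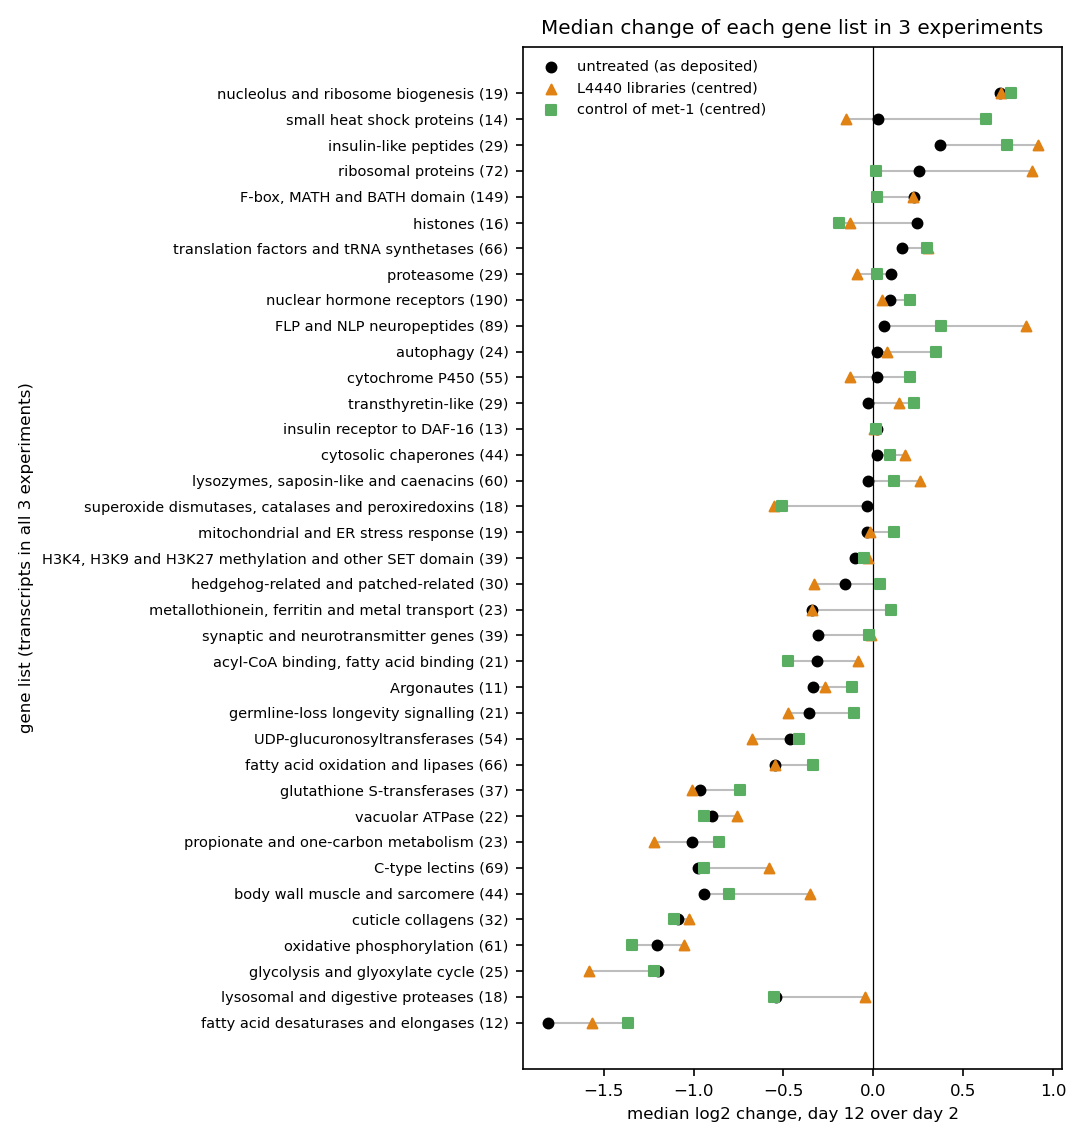
Median log2 difference, day 12 over day 2 (x axis), of each gene list in the untreated worms (circles), the L4440 libraries (triangles) and the control worms (squares), over the transcripts that all 3 tables hold, their number in brackets. Ribosomal proteins spread from 0.01 in the control to 0.88 in L4440, and small heat shock proteins from −0.15 in L4440 to 0.62 in the control.

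Of the shared transcripts at least 4-fold past equality here, 6 higher and 8 lower ones were within 2-fold in both other experiments, 4 were at least 2-fold the other way in L4440 and 1 in the control. Several of those within 2-fold elsewhere are 1 transcript of a gene with others, such as pdi-2 (NM_001129628) and ttr-59 (NM_001129708), listed at 0 at day 2. Among the rest were abcf-2 with 25.7 and 172 FPKM (2.70), F55B11.2 with 86.3 and 533 (2.61) and ugt-32 with 18.7 and 3.78 (−2.05). The gene abcf-2, of the ABCF family of ATP-binding proteins, had L4440 values of 130.1 and 120.4 FPKM at day 2 and of 285 and 306 at day 12, so it was higher there as well, by a smaller difference of 0.77. Left out of these counts were 32 transcripts at least 4-fold past equality here that were below 1 FPKM in another experiment, cdr-3 among them. The other way round, 23 transcripts were at least 4-fold past equality in the same direction in both other experiments and within 2-fold here. None of these differences between experiments was tested.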

How the data were processed

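Whole-worm mRNA was measured in 4 libraries of untreated glp-1(e2141) animals, 2 per age, among the 20 mRNA libraries and 12 chromatin samples of the series. Per the file headers, the authors deposited 1 FPKM value per age for each transcript, with a log2 fold change and a q-value, and FPKM values for the other experiments. CASAVA 1.8, BWA, TopHat, TopHat2 and Cuffdiff are the tools that the submitters' processing notes name, without roles. No source used here gives the build or the authors' test. In the deposited table the log2 fold change equals the ratio of the 2 FPKM values, and 0 is written for transcripts listed at 0 at one age.

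From the FPKM values, log2((day 12 + 1)/(day 2 + 1)) was computed with pandas 2.3.3 and numpy 2.4.6 in Python 3.11.15 for transcripts with at least 1 FPKM at one age. Figures were drawn with matplotlib 3.10.9. The calculation was tested on simulated data. No test was possible with 1 value per age, and no sequence was used. L4440 libraries were each set to one median over shared transcripts, and the control ages likewise. Symbols and gene order came from RefSeq tables of WBcel235, which gave 10299 symbols by transcript identifier and 1963 by gene name, with no match for 1305. Tables of the met-1 mutant and met-1 RNAi values were not used. No column of per-sample values was without a sample.

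The transcripts and gene lists were chosen with earlier results of these data known, and the lists were trimmed slightly after the files were seen. Named by rule were the 12 genes with the largest difference each way among transcripts above 0 at both ages, the 2 highest and 2 lowest of each list, the 4 leading transcripts listed at 0 at either age, genes whose transcripts differed in opposite directions, the 6 most abundant at each age, H3K36 genes, and the 3 transcripts nearest 2-fold on each side. Other genes named were chosen after their values were seen. Alternatives were another pseudocount, another minimum FPKM, centring, FPKM summed per gene, a 4-fold limit and leaving out each L4440 replicate at both ages. A search for promoter motifs was planned and not run.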

Additional observations from a re-analysis of the deposited data

Results flagged for a closer look

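Transcript NM_070016 of efa-6, a guanine exchange factor that limits axon growth, lay at least 2-fold lower at day 12 in the untreated worms and at least 2-fold higher in the L4440 libraries. It had 3.73 and 0.352 FPKM in the untreated worms, a log2 difference of −1.81, with a q-value of 0.782 in the authors' deposited table. In the L4440 libraries it had 0.00993 and 1.47 FPKM at day 2 and 9.28 and 8.68 at day 12, a difference of 2.19 relative to the median transcript. In the control worms it had 10.8 and 9.75 FPKM (−0.13). The difference between the experiments was not tested. The gene has other transcripts in the table, and its levels are low.

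Of the shared transcripts at least 2-fold past equality here, 29 were at least 2-fold the other way in L4440, namely 13 of the higher and 16 of the lower ones. In 18 of them the L4440 libraries of the 2 ages did not overlap. Over all shared transcripts, both old libraries were above both young ones in 31.3% and below both in 34%. Those 18 include the ones below, named after their values were seen because they were 4-fold past equality or reached 50 FPKM at one age here. Transcript NM_001083146 of lron-9, a leucine-rich repeat gene, had 5.80 and 0 FPKM here (−2.76) and 2.04 in L4440, and T20D4.16 had 5.19 and 0 (−2.63) and 2.33. Transcript NM_001028379 of the filamin gene fln-1 had 57.0 and 16.1 FPKM here (−1.76), and 1.48 in L4440 and 1.29 in the control. The C-type lectin gene clec-52 had 207 and 75.7 FPKM here (−1.44), and 1.32 in L4440 and −1.38 in the control. Transcript NM_001027018 of the galectin gene lec-2 had 113 and 271 FPKM here (1.25), and −1.31 in L4440 and −1.43 in the control. None of these differences between experiments was tested.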

How the results depend on the processing

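No paired analysis was possible because the deposited table gives 1 value per age for both libraries together and no result comes from a test. For the same reason no untreated library could be left out. The count of transcripts at least 2-fold higher, 1024, ran from 773 with a minimum of 5 FPKM to 1395 with a pseudocount of 0.1, and was 1174 after centring. The count of lower ones, 1764, ran from 1451 to 2210 under the same 2 settings and was 1568 after centring. With a minimum of 5 FPKM, the lower collagens numbered 9 in place of 22 and the higher F-box, MATH and BATH transcripts 15 in place of 24, since fewer transcripts remained. Genes with transcripts in opposite directions numbered 8, 1 with a minimum of 5 FPKM and 0 with a 4-fold limit. Replicate 1 or replicate 2 of the L4440 libraries was then left out at both ages, which left 1 library per age. The share of 4-fold higher transcripts that were also higher there was 93.8% and 97.1%. The share of 4-fold lower ones also lower was 96.4% and 96.6%. No named transcript 2-fold or more past equality and no list with a median above 0.182 in size turned direction; pha-4, mrg-1 and set-18, at −0.02, −0.05 and −0.03, stood at 0.06, 0.03 and 0.06 after centring. The medians of 10 lists closer to 0 changed sign in some alternative, among them cytochrome P450 genes, at 0.00051 and at −0.145 with a minimum of 5 FPKM, and H3K36 methylation genes, at −0.05 and at 0.03 after centring. Depth is unknown, so low transcripts and single isoforms are the least certain values.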

Other observations

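Fatty acid binding and acyl-CoA binding genes held 6 lower and 1 higher of 21 transcripts. The lysosomal lipid chaperone gene lbp-8 had 92.2 and 3.47 FPKM (−4.38), while far-7 (NM_061307) had 35.8 and 162 (2.15). Hedgehog-related and patched-related genes held 9 lower and 1 higher of 35.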
